A study of Mus musculus with 16 samples.

Results

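The nuclear-encoded subunits of respiratory complexes II to V were examined in mouse cardiac tissue lacking Fgf21, Clpp or both. Members were the rows of the count table whose symbol is Sdha, Sdhb, Sdhc, Sdhd or Cyc1, or begins with Uqcr, Atp5, or Cox followed by 4 to 8, without pseudogenes, with a level of at least 1 CPM (a count scaled to library size) in at least 4 libraries. Of 36499 rows, 59 had such a symbol, 7 of them were pseudogenes and 4 fell under the level minimum (Cox6c2, Cox7b2, Cox8c and a second identifier of Atp5o). The 48 rows left stand for 46 genes, because Uqcrc1 and Atp5a1 each occupy 2 rows with identical counts and were counted once. Complex II had 4 members, complex III 9, complex IV 16 and complex V 17, and all 46 were among the 15255 genes tested.

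The study compared wild type (wt), Fgf21 KO (fgf21), Clpp KO (clpp) and double KO (dko) mice on normal chow, with 4 libraries of cardiac RNA per genotype. Clpp was deleted in the whole body by Cre under the β-actin promoter from floxed alleles, and the double KO came from mice floxed at both genes crossed with the same Cre. The labels state no age, sex or chamber of the heart, and do not say how the Fgf21 KO was made or whether the libraries of a group are separate animals. P-values therefore measure the spread between libraries, which may in part be technical.

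Complex II, succinate dehydrogenase, is built from nuclear-encoded subunits alone. Complexes III and IV, which pass electrons to cytochrome c and on to oxygen, and complex V, the ATP synthase, combine nuclear subunits made in the cytosol with a core encoded in mitochondrial DNA (mtDNA). Several subunits of complex IV exist as a form enriched in heart and muscle and a form found in most tissues. CLPP is the proteolytic subunit of the matrix protease ClpXP, and FGF21 is a secreted hormone.

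Libraries held 36260545 to 51820727 counts. Clpp had 1435 to 2636 counts in the libraries with the gene and 267 to 355 in those labelled as lacking it, and the 8 libraries labelled Fgf21 KO or double KO held 0 counts of Fgf21, where wt held 0 to 5 and Clpp KO 6 to 28. Genes listed as ventricular cardiomyocyte markers (Myl2, Myl3, Irx4, Hey2, Myh6, Tnnt2 and Actc1) summed to 21570 to 50110 CPM after scaling by TMM (the trimmed mean of M-values, used for every level and fold change here unless said otherwise). Myh6 led this sum at 10410 to 20860 CPM, and the sum was not taken as a measure of ventricle against atrium. Skeletal muscle markers summed to 0.221 to 1.33 CPM. The wt group was not uniform. Atrial cardiomyocyte markers, all 6 detected, summed to 10090 and 6423 CPM in wt replicates 2 and 4 and to 80.7 and 74.7 in replicates 1 and 3, against 337 to 2800 in Fgf21 KO, 187 to 3485 in Clpp KO and 161 to 1405 in double KO. Brown fat markers, 2 of 4 above the filter, summed to 70.9 CPM in wt replicate 4 and to 11.3 to 23.0 in the other 15 libraries, and white fat markers, 4 of 5 above the filter, to 40.9 and 128 CPM in wt replicates 2 and 4 and to at most 10.7 elsewhere. Endothelial markers, all 5 tested, summed to 393 to 543 CPM in the libraries with Clpp and 362 to 514.5 in those without it, with 1 of 5, Pecam1, called lower over both Fgf21 genotypes (−0.40 ± 0.09, adjusted p = 0.0151). Macrophage markers, all 5 tested, summed to 53.9 to 98.3 CPM with Clpp and 57.7 to 98.9 without it, with 1 of 5, Adgre1, called higher (0.70 ± 0.17, adjusted p = 0.0279). Fibroblast markers, all 5 tested, summed to 711 CPM in wt replicate 2 and 284 to 529 elsewhere. Red blood cell markers, all 4 tested, summed to 1794 to 5029 CPM in wt, 897 to 2119 in Fgf21 KO and 641 to 1301 in Clpp KO. In double KO replicates 1 to 4 they summed to 455, 524, 1301 and 7813, so the high end of that group rests on replicate 4 alone. For the interaction 4 of 4 had an unadjusted p under 0.05, where 1.96% of genes had, with 0 called (edgeR). The part of these cell types in the results was not tested. Wt replicates 1 and 3 were the most alike pair of any group (Spearman 0.997, where the other pairs within groups differed more), yet differed by more than sampling noise, and were kept as separate libraries. In bulk tissue, fewer cells of a type and less RNA per cell cannot be told apart.

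Loss of Clpp lowered 2 of the 46 members over both Fgf21 genotypes: Cox7a1, the heart and muscle form of a small complex IV subunit, and Atp5e, the epsilon subunit of the ATP synthase stalk. Of all genes tested, 5.11% were called in that comparison and 2.27% were called lower, so 2 of 46 called lower is close to the background. The promoters of both genes, and that of Cox7a2, the form of Cox7a1 found in most tissues, are shown here as the 250 bases before the RefSeq transcription start on GRCm38.p6. Cox7a1 is at chr7:30183921-30184170 on the plus strand, Cox7a2 at chr9:79759854-79760103 on the minus strand and Atp5e at chr2:174464102-174464351 on the minus strand, each written 5′ to 3′ in the direction of transcription. Capitals mark a match to a motif named in the next paragraph.
Cox7a1: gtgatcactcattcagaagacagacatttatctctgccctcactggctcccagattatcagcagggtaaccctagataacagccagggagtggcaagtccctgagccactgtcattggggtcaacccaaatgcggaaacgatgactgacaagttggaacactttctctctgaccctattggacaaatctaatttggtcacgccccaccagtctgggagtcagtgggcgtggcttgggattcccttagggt
Cox7a2: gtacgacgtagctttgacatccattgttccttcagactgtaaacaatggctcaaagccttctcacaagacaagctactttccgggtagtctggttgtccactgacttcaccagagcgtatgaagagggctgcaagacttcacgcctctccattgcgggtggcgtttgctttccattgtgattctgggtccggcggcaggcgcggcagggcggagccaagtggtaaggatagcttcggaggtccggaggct
Atp5e: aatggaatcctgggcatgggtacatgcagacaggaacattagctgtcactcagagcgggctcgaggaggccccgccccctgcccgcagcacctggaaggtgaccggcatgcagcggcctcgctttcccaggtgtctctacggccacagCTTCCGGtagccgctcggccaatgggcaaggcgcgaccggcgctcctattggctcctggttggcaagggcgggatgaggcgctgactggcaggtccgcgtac

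A RefSeq promoter was at hand for 35 of the 46 members. The ETS motif CCGGAAG, a site type bound by GABP, was found on either strand in the 250 bases of 9 of these 35 (25.7%), against 7.83% of 27025 genes. The NRF1 motif was found in 3 (8.57%), namely Cox6a1, Atp5g2 and Atp5k, against 0.877% of all genes. The YY1 motif AAGATGGCG was found in 1 (2.86% against 0.71%), the ERR motif AAGGTCA in 2 (5.71% against 4.7%), the MEF2 motif in 1 (2.86% against 3.7%) and TATAAA in 2 (5.71% against 14.3%). Atp5e carries the ETS letters 102 bases before its start. Cox7a1, Cox7a2, Cox8a and Cox8b held none of these motifs in this window. A match describes the letters alone.

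**Figure D1:**
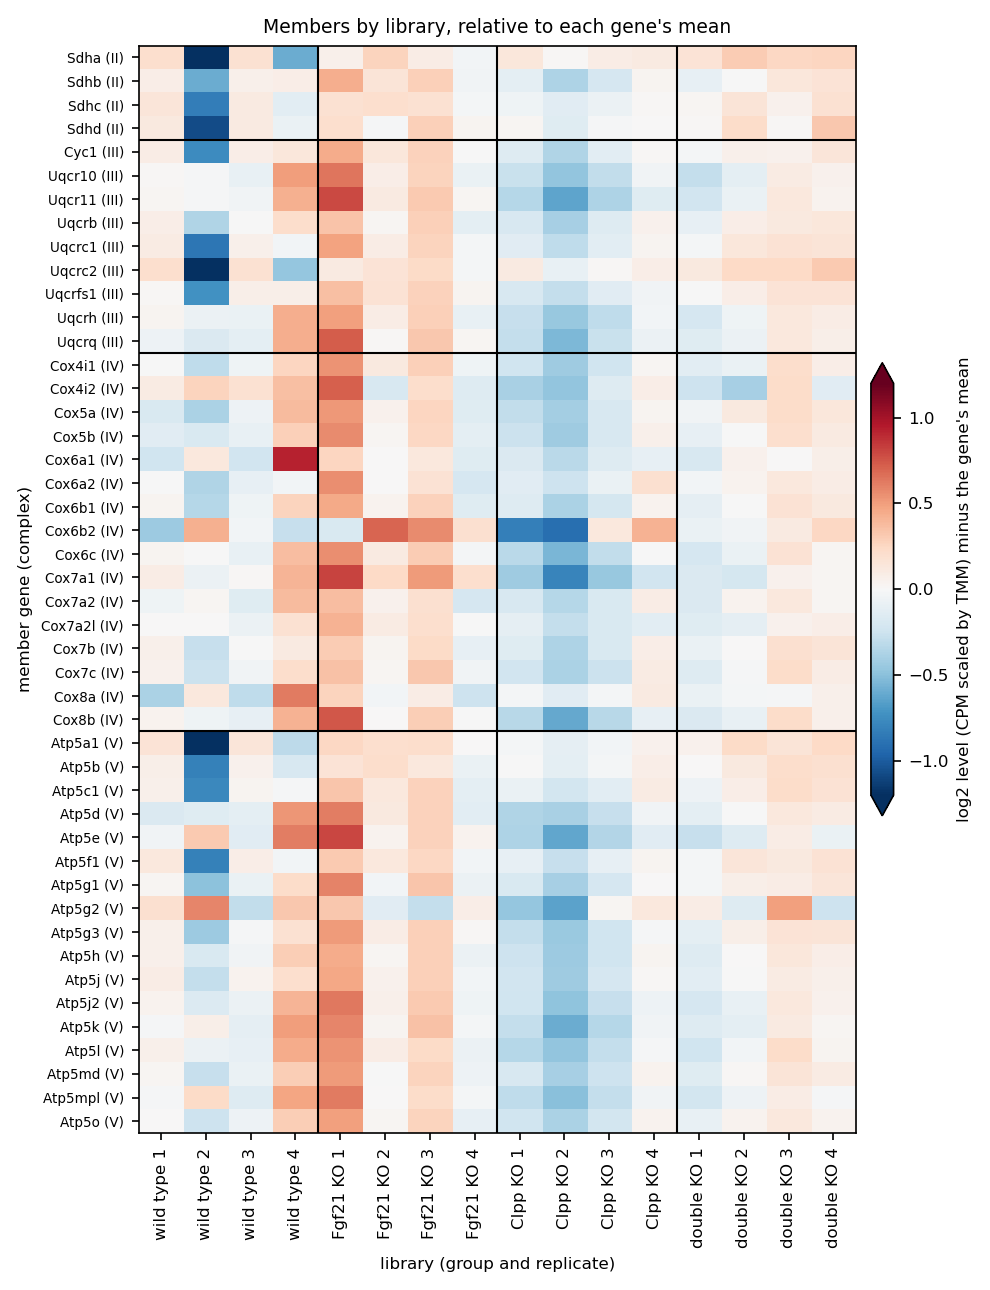
Each row is a member grouped by complex and each column a library grouped by genotype, and colour gives the log2 level (CPM scaled by TMM) minus that gene's mean over the 16 libraries, with values beyond 1.2 in either direction shown at the end of the scale. In replicates 1 to 4, blue marks 13, 36, 31 and 11 of the 46 members in wt and 1, 6, 1 and 36 in Fgf21 KO. It marks 43, 45, 42 and 17 in Clpp KO and 39, 24, 1 and 4 in double KO, and red marks the rest. The blue members of wt replicate 2 include Sdha, Uqcrc2 and Atp5a1.

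Cox7a1 lay at 334.5, 300.1, 318 and 417 CPM in wt and at 553, 370, 447 and 362 in Fgf21 KO. It lay at 234, 181, 229 and 268 in Clpp KO and at 279, 272, 326 and 319 in double KO. Every Clpp KO library was below every wt library, and every double KO library below every Fgf21 KO library. The fold change over both Fgf21 genotypes was −0.56 ± 0.11 on the log2 scale (edgeR quasi-likelihood test, Benjamini-Hochberg adjusted p = 0.0099). Within each Fgf21 genotype it was −0.59 ± 0.16 (adjusted p = 0.0776) and −0.53 ± 0.16 (adjusted p = 0.264), and neither was called. Cox7a1 was the only member whose groups did not overlap in both of these comparisons, which share no library, and 0.459% of all genes fell without overlap in both. None of the sequence of its principal transcript in runs of 31 bases was shared with another gene, and no gene overlaps it at chr7:30184144-30186078 in GENCODE.

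Cox7a1 and Cox8b are also known as abundant transcripts of brown fat, whose markers were high in wt replicate 4. The call for Cox7a1 held in each of the 16 fits that left out 1 library (adjusted p 0.00588 to 0.029) and in all 12 other settings. Among these is library size alone, which put all 46 members below 0 and so says little about Cox7a1. Without wt replicates 2 and 4, the libraries rich in atrial transcripts, it was −0.53 (adjusted p = 0.013), and with an atrial covariate −0.60 (adjusted p = 0.00692).

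Atp5e lay at 213, 274, 200.1 and 337 CPM in wt and at 383, 226, 266.5 and 226 in Fgf21 KO. It lay at 170.3, 143, 172 and 199.7 in Clpp KO and at 181, 197, 233 and 207 in double KO. The Clpp KO libraries stayed below those of wt, the lowest wt value being close to the highest of Clpp KO, while double KO and Fgf21 KO overlapped. The fold change over both Fgf21 genotypes was −0.50 ± 0.14 (adjusted p = 0.0429). This call was lost in 12 of the 16 fits that left out 1 library (adjusted p up to 0.0901) and kept only without wt replicate 1, wt replicate 3, Fgf21 KO replicate 2 or Fgf21 KO replicate 4, and without wt replicates 2 and 4 it was −0.36 (adjusted p = 0.127). Of 12 other settings the call was kept in 8, among them DESeq2, limma-voom and library size alone, which put all 46 members below 0. It was lost in 4, which besides the one just named were an atrial covariate (−0.49, adjusted p = 0.0684), a replicate block (adjusted p = 0.0758) and a GC offset (adjusted p = 0.055). With the atrial covariate Uqcr11 of complex III was called in place of Atp5e (−0.46, adjusted p = 0.0499).

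**Figure D2:**
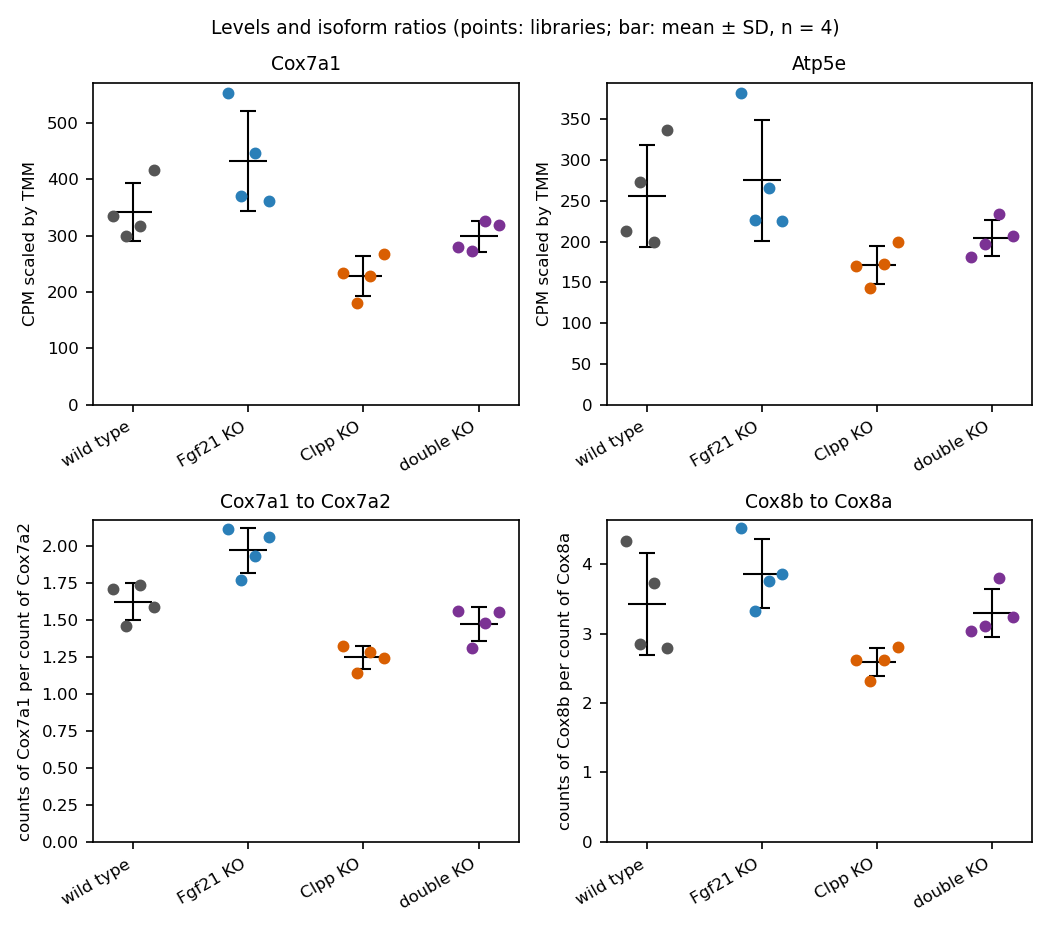
Points are libraries by genotype, and bars give the mean ± SD of 4: the upper panels show levels of Cox7a1 and Atp5e in CPM scaled by TMM, the lower panels counts of Cox7a1 per count of Cox7a2 and counts of Cox8b per count of Cox8a. Clpp KO is the lowest group in all 4 panels, and for Cox7a1 to Cox7a2 its libraries lie between 1.14 and 1.32 where those of wt lie between 1.46 and 1.74.

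Paired forms of complex IV subunits were set against each other in 4 pairs, as counts of one per count of the other in the same library. All pairs but Cox4i2 to Cox4i1 set a heart form against a form found in most tissues. These ratios are not per length, so they compare libraries, not genes. For Cox7a1 to Cox7a2 the ratio was 1.71, 1.46, 1.74 and 1.59 in wt and 2.12, 1.77, 1.93 and 2.06 in Fgf21 KO. It was 1.32, 1.14, 1.28 and 1.25 in Clpp KO and 1.56, 1.31, 1.48 and 1.55 in double KO. Clpp KO lay below wt and double KO below Fgf21 KO with no overlap, although double KO reached into the range of wt. Over 8 libraries lacking Clpp against 8 with it, the difference was −0.40 on the log2 scale (exact two-sided permutation test p = 0.000777, p = 0.00311 after Benjamini-Hochberg adjustment over the 4 pairs). Cox7a2 itself differed by −0.16 ± 0.10 (adjusted p = 0.334, edgeR).

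For Cox8b to Cox8a, also a heart form and a common form, the ratio was 2.80 to 4.33 in wt and 3.33 to 4.52 in Fgf21 KO, against 2.32 to 2.81 in Clpp KO and 3.03 to 3.81 with both lost. The difference was −0.30 (exact permutation p = 0.026, adjusted p = 0.0519), which missed the threshold. With libraries permuted within each Fgf21 genotype, which the design also allows, the adjusted p was 0.0114 (exact permutation test), so the call depends on this choice. Without wt replicates 2 and 4, whose ratios of 2.85 and 2.80 were the lowest of wt, it was −0.42 (exact permutation test, adjusted p = 0.00599). Cox8b was at 220.1 to 314.5 CPM in wt, 236 to 396.5 in Fgf21 KO, 154 to 220.1 in Clpp KO and 209 to 275 in double KO, a fold change of −0.35 ± 0.13 over both Fgf21 genotypes (adjusted p = 0.104). Cox8a differed by −0.07 ± 0.13 (adjusted p = 0.757).

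For Cox6a2, the heart form, to Cox6a1 the ratio was 22.9, 13.9 and 21.3 in wt replicates 1 to 3 and lower in replicate 4, against 18.8 to 24.0 in the knockout libraries, and the difference was 0.19 (exact permutation p = 0.28, adjusted p = 0.28). Cox6a1 stood at 90.6 CPM in wt replicate 4 and at 38.0 to 56.9 in the other libraries. Cox6a2 differed by −0.02 ± 0.11 and Cox6a1 by −0.25 ± 0.14 (adjusted p = 0.916 and 0.277, edgeR). For Cox4i2, a form regulated by oxygen in lung, to Cox4i1 the ratio was 0.00482 to 0.00888, with a difference of −0.18 (exact permutation p = 0.116, adjusted p = 0.155). Cox4i1 differed by −0.20 ± 0.11 and Cox4i2 by −0.38 ± 0.14 (adjusted p = 0.259 and 0.104).

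Transcript levels per length differed between the paired forms, and protein was not measured here. As a mean over the 16 libraries in RPKM (CPM scaled by TMM per kilobase of the principal transcript), Cox6a2 was at 1376 and Cox6a1 at 85.4, Cox7a1 at 829 and Cox7a2 at 310, Cox8b at 671 and Cox8a at 134, Cox4i1 at 1281 and Cox4i2 at 7.95, and Cox6b1 at 627 and Cox6b2, a testis form, at 2.91. Among the genes for subunit c of the ATP synthase, which encode the same mature protein, Atp5g3 was at 1228 and Atp5g1 at 1194 RPKM. Atp5g2 was at 35.1, but all of its transcript is shared in runs of 31 bases with Gm10175 or other genes, whose counts came to 835% of its own, so its level is uncertain. The highest member per length was Sdhb in complex II (432 RPKM), Uqcrq in complex III (782), Cox6a2 in complex IV and Atp5b, the catalytic beta subunit, in complex V (1877). Levels of Uqcrc1 and Atp5a1 are uncertain, since their identical rows may hold the counts whole or divided, but their fold changes are not affected.

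Complex II showed no call by edgeR or DESeq2. Limma-voom called Sdhb lower over both Fgf21 genotypes (−0.23, adjusted p = 0.0195) and in Clpp KO against wt (−0.23, adjusted p = 0.048). It called 21.5% and 18.5% of all genes there, in either direction. Sdha, the flavoprotein that oxidises succinate, was at 990, 305, 979 and 568 CPM in wt, 840 to 1036 in Fgf21 KO, 868 to 947 in Clpp KO and 961 to 1065 in double KO. Wt replicates 2 and 4 were below all other libraries, and wt replicates 1 and 3 were inside the range of the knockouts. Over both Fgf21 genotypes the loss of Clpp gave 0.25 ± 0.18 for Sdha, −0.13 ± 0.11 for Sdhb, the iron-sulfur subunit, and 0.02 ± 0.11 and 0.07 ± 0.14 for the membrane anchors Sdhc and Sdhd (adjusted p 0.383 to 0.946). The median of the 4 was 0.04, and without wt replicates 2 and 4 it turned to −0.09.

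Complex III had 1 of 9 members above 0 and a median of −0.12 over both Fgf21 genotypes. The 4 small subunits Uqcr10, Uqcr11, Uqcrh and Uqcrq had an unadjusted p under 0.05 and none was called by edgeR. Uqcr11 was at 254, 246.5, 243 and 336 CPM in wt, 433, 268, 311 and 254.5 in Fgf21 KO, 196, 161, 194 and 226 in Clpp KO, and 212, 236, 273 and 257 in double KO. Clpp KO was below wt in every library, and double KO overlapped Fgf21 KO. Its fold change was −0.42 ± 0.12 (adjusted p = 0.0554), and that of Uqcr10 −0.35 ± 0.12 (adjusted p = 0.0968). Of 12 other settings 6 called Uqcr11, among them DESeq2 (adjusted p = 0.0103), limma-voom (0.00281), the atrial covariate and library size alone. The 3 that called Uqcr10 were DESeq2 (adjusted p = 0.0422), limma-voom (0.00946) and library size alone. Uqcrc2, a large core subunit, was at 582.5, 187, 573 and 366 CPM in wt and 476 to 629 in all knockout libraries, and differed by 0.19 ± 0.17 (adjusted p = 0.499).

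In complex IV all 16 fold changes were below 0 over both Fgf21 genotypes, with a median of −0.18 and 1 call (Cox7a1). In complex V 15 of 17 were below 0, with a median of −0.19 and 1 call (Atp5e). Atp5b, at 2028 to 3735 CPM in wt and 3266 to 4112 in the knockout libraries, differed by 0.09 ± 0.12, and the subunit c genes Atp5g1, Atp5g2 and Atp5g3 by −0.15 ± 0.12, −0.19 ± 0.15 and −0.18 ± 0.11 (adjusted p 0.30 to 0.636). Atp5k, a small subunit tied to dimers of the enzyme, differed by −0.36 ± 0.12 (adjusted p = 0.0823). Over all members, 40 of 46 were below 0 with a median of −0.18, where 53.3% of all genes tested were below 0 with a median of −0.02. A transcript length offset put 31 of 46 below 0 and library size alone all 46. At an unadjusted p under 0.05, 14 members were lower, where 13.7% of genes were. DESeq2 called 9 members lower, where it called 10% of all genes in either direction. Limma-voom with quality weights called 25 lower, where it called 21.5% of all genes in either direction. Both lists hold Cox7a1 and Atp5e. Per complex, the medians for III, IV and V were −0.053, −0.047 and −0.047 with a transcript length offset, and −0.21, −0.14 and −0.17 without wt replicates 2 and 4.

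**Figure D3:**
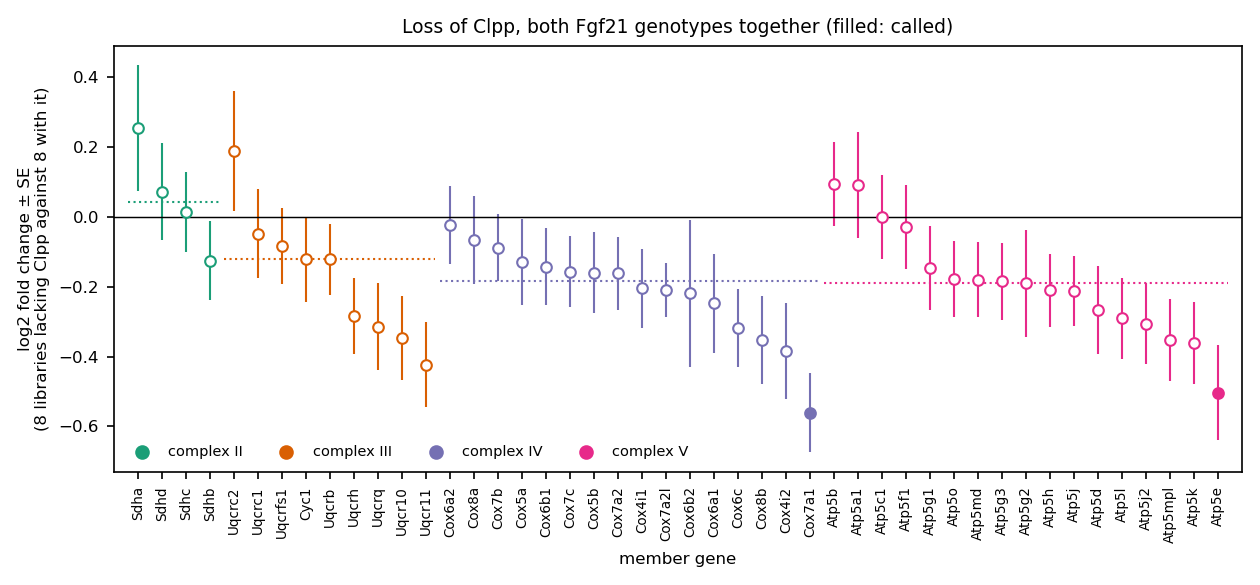
Each point is the log2 fold change ± SE of a member for loss of Clpp over both Fgf21 genotypes (8 libraries against 8), ordered within its complex, with dotted lines at the median of each complex and filled points for called genes. Cox7a1 at −0.56 and Atp5e at −0.50 are the filled points, and the median of complex II at 0.04 lies above those of complexes III to V.

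With Fgf21 intact, Clpp KO against wt gave 0 called members (edgeR, 1.63% of all genes called), 11 lower at an unadjusted p under 0.05 where 12.1% of genes were, and a median of −0.20. Of the 46, 36 were below 0 (54.2% of genes), against 24 with a transcript length offset and all 46 with library size alone. DESeq2 called Cox7a1 (5.51% of all genes), and limma-voom called 15 members lower and 1, Cox8a, higher (18.5% of all genes). The groups did not overlap for 5 members, all lower (Uqcr11, Cox4i2, Cox7a1, Cox7a2l and Atp5e), where 5.93% of genes were lower without overlap. Cox7a2l, which encodes a factor that joins complexes III and IV, is named here for this count, after its values were seen. Medians by complex were 0.10 for II, −0.16 for III, −0.19 for IV and −0.22 for V. Without wt replicates 2 and 4 they were −0.16, −0.20, −0.15 and −0.19, so that of complex II turned. With a transcript length offset they were 0.14, 0.0082, −0.0077 and −0.058, so that of complex III turned and those of IV and V shrank.

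In the absence of Fgf21, double KO against Fgf21 KO gave 0 called members (edgeR, 0.892% of all genes), 3 lower at an unadjusted p under 0.05 (Uqcr11, Cox7a1 and Atp5e, where 2.9% of genes were lower), and a median of −0.16. Of the 46, 41 were below 0 (51.2% of genes), against 33 with a transcript length offset and all 46 with library size alone. DESeq2 and limma-voom each called 1, Cox7a1, where they called 1.37% and 2.43% of all genes. Only Cox7a1 did not overlap, where 1.92% of genes were lower without overlap. The test of the difference between the effects of Clpp loss with and without Fgf21 gave 0 called members, by DESeq2 and limma-voom as well, where edgeR called 0% of all genes, DESeq2 0.0197% and limma-voom 0.00656%. At an unadjusted p under 0.05 were 0 members and 1.96% of genes. For Cox7a1 that difference was 0.05 ± 0.23 and for Atp5e 0.15 ± 0.27 on the log2 scale.

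Loss of Fgf21 alone called 0 members against wt, and 0 by DESeq2 and limma-voom, where edgeR called 0.0459% of all genes, DESeq2 0.223% and limma-voom 0.728%. At an unadjusted p under 0.05 were 0 members and 9.17% of genes. Of the 46 members 42 were above 0, with a median of 0.20, where 48.2% of genes were above 0. With library size alone as the scale 22 were above 0. Cox7a1 had 0.34 ± 0.16 (adjusted p = 0.538), with overlapping groups, and Uqcrfs1, the Rieske iron-sulfur subunit, 0.32 ± 0.15 (adjusted p = 0.538). Fgf21 KO replicate 1 was the highest library of its group for Cox7a1, Atp5e, Uqcr11 and Cox8b.

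Double KO against Clpp KO also called 0 members (by edgeR, DESeq2 and limma-voom, which called 0.059%, 0.229% and 0.269% of all genes), with 1 higher at an unadjusted p under 0.05, where 2.01% of genes were. All 46 were above 0 with a median of 0.23, where 51.8% of genes were above 0; with library size alone 41 were, with an atrial covariate 42 and with a transcript length offset 44. The groups did not overlap for 6 members, all higher (Sdha, Sdhc, Uqcrc2, Uqcrfs1, Cox7a1 and Atp5a1), where 3.11% of genes were higher without overlap. Cox7a1 had 0.39 ± 0.16 (adjusted p = 0.994). Double KO against wt called 0 members by all 3 tools, where edgeR called 1.53% of all genes, DESeq2 6.33% and limma-voom 6.32%. At an unadjusted p under 0.05 were 0 members and 22.8% of genes, and 25 members were above 0 (48.7% of genes) and 21 below, with a median of 0.03, where library size alone put all 46 below 0. This comparison and those of each single knockout against wt share the wt libraries.

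The scale decides how these levels read. As a share of all counts, the members made up 2.79% ± 0.22 in wt and 2.92% ± 0.41 in Fgf21 KO, against 1.60% ± 0.09 in Clpp KO and 1.67% ± 0.09 with both genes lost (SD, n = 4 per genotype). The libraries with Clpp lay at 2.60% to 3.52% and those without it at 1.52% to 1.81%, with no overlap. Transcripts of mtDNA took 25.6% to 39.4% of counts in the first 8 libraries and 56.1% to 60.8% in the others. Of the counts outside mtDNA the members made up 4.19% ± 0.30 in wt and 4.56% ± 0.30 in Fgf21 KO, against 3.82% ± 0.18 in Clpp KO and 4.06% ± 0.07 with both lost. On this scale Clpp KO at 3.59% to 4.04% overlapped wt at 3.74% to 4.37%, while every double KO library was below every Fgf21 KO library. Only genes with symbols starting in mt- were taken out as mtDNA. The nuclear copies of mtDNA Gm29216 (24491017 counts over all libraries) and Gm28661 (2918502) stayed in. Their effect on this share in each genotype was not tested. With library size alone as the scale, 46 of 46 members were below 0 over both Fgf21 genotypes. The median of all genes itself moved by −0.75, against −0.02 with TMM, so this direction does not set the members apart.

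The mtDNA-encoded subunits of the same complexes moved the other way on the TMM scale. All 6 (mt-Cytb of complex III, mt-Co1, mt-Co2 and mt-Co3 of complex IV, mt-Atp6 and mt-Atp8 of complex V) were called higher over both Fgf21 genotypes, with a median of 1.48, and 6, 5 and 6 were called in Clpp KO against wt, double KO against Fgf21 KO and double KO against wt. Of all genes tested, 2.83% were called higher over both Fgf21 genotypes, and 1.08%, 0.826% and 1.05% in those 3 comparisons in the same order. In the comparisons that remove Fgf21 alone 0 of 6 mtDNA-encoded subunits were called (edgeR, 0 at an unadjusted p under 0.05). Over both Fgf21 genotypes mt-Co2 rose by 1.42 ± 0.13 (adjusted p = 4.3e-06), mt-Atp6 by 1.60 ± 0.16 (adjusted p = 1.02e-05) and mt-Co3 by 1.14 ± 0.13 (adjusted p = 6.48e-05). Nuclear copies of mtDNA share sequence with these genes: Gm28661 with mt-Co2 (7.22% as many counts) and Gm29216 with mt-Co1 (26.5% as many), so their split is uncertain.

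Set against each other within a library, mtDNA-encoded counts per nuclear-encoded count of complex IV were 32.1, 16.5, 32.8 and 18.2 in wt and 17.2, 29.9, 26.2 and 31.4 in Fgf21 KO. They were 74.7, 82.0, 83.0 and 69.4 in Clpp KO and 75.5, 70.6, 73.4 and 78.5 in double KO. All 8 libraries lacking Clpp were above all 8 with it, and wt replicates 2 and 4 were the lowest of wt. For complex III the ratio was 7.81 ± 1.49 in wt and 7.89 ± 2.04 without Fgf21, against 19.4 ± 0.97 without Clpp and 19.6 ± 2.88 without either (SD, n = 4 each). For complex V it was, in the same order, 2.51 ± 0.59, 2.64 ± 0.61, 8.57 ± 0.56 and 8.35 ± 1.01. The groups with and without Clpp did not overlap for any of the 3 complexes. These are ratios of counts and not per length, so they compare libraries and not the amounts of the 2 kinds of transcript.

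**Figure D4:**
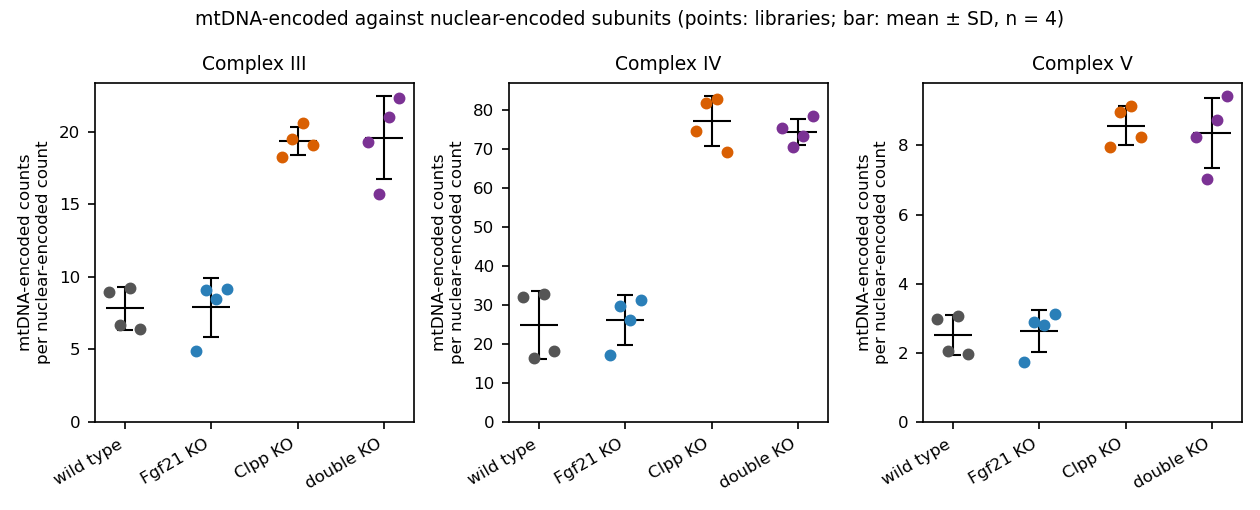
Points are libraries by genotype and bars the mean ± SD of 4, for mtDNA-encoded counts per nuclear-encoded count of complexes III, IV and V, each axis starting at 0. In complex IV the libraries lacking Clpp lie between 69.4 and 83.0 and those with Clpp between 16.5 and 32.8.

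Genes that build or regulate the complexes were given as lists for comparison. Of the assembly factors tested over both Fgf21 genotypes, 0 of 4 for complex II, 0 of 7 for complex III and 0 of 4 for complex V were called (edgeR, with 0, 2 and 0 at an unadjusted p under 0.05). Of 21 for complex IV 1 was, Pet100, at −0.36 ± 0.10 (adjusted p = 0.0466), where 5.11% of all genes were called. Uqcc2, a factor for cytochrome b, had −0.41 ± 0.12 (adjusted p = 0.0643). Of cytochrome c and the Ndufa4 genes, Ndufa4l2 fell by 0.38 ± 0.11 (adjusted p = 0.0461), and Ndufa4, a subunit of complex IV outside the naming rule used here, had −0.28 ± 0.10 (adjusted p = 0.107). Of 14 regulators of nuclear respiratory genes 0 were called in any comparison (edgeR). At an unadjusted p under 0.05 were 5 of 14 over both Fgf21 genotypes, where 25.4% of genes were. In Clpp KO against wt 5 were (21.3% of genes), in double KO against wt 3 (22.8%) and in Fgf21 KO against wt 2 (9.17%). In the other comparisons 0 were, where 1.96% to 7.09% of genes were. The lowest p over both Fgf21 genotypes were those of Gabpa, the DNA-binding subunit of the ETS factor GABP, at 0.33 ± 0.10 (adjusted p = 0.0768), and Yy1 at 0.22 ± 0.08 (adjusted p = 0.112). Gabpa overlaps Atp5j on the genome and shares 15.9% of the runs of 31 bases of Atp5j.

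The fold changes of the members went with transcript length. In Clpp KO against wt, Spearman's rho between fold change and principal transcript length was 0.765 over the 46 members and 0.193 over 15046 genes, as a description across genes, which share libraries and are not independent. The 19 members under 600 nt had a median of −0.37 and the 14 over 1000 nt a median of 0.03. The wt libraries differed in this respect: the median log2 level of the short members minus that of the long ones was −1.31 and −1.38 in wt replicates 1 and 3, −0.51 and −0.62 in replicates 2 and 4, −0.82 in Fgf21 KO replicate 1 and between −1.38 and −1.10 in the other 11 libraries. Without wt replicates 2 and 4, rho in that comparison was 0.282, the medians were −0.20 and −0.17, and 43 of 46 members were below 0. Over both Fgf21 genotypes rho was 0.755, and 0.506 without those 2 libraries. With length as an offset in the fit, 31 of 46 were below 0 over both Fgf21 genotypes with a median of −0.04, and Cox7a1 stayed called at −0.39 (adjusted p = 0.00637). What sets the length difference between libraries was not tested.

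**Figure D5:**
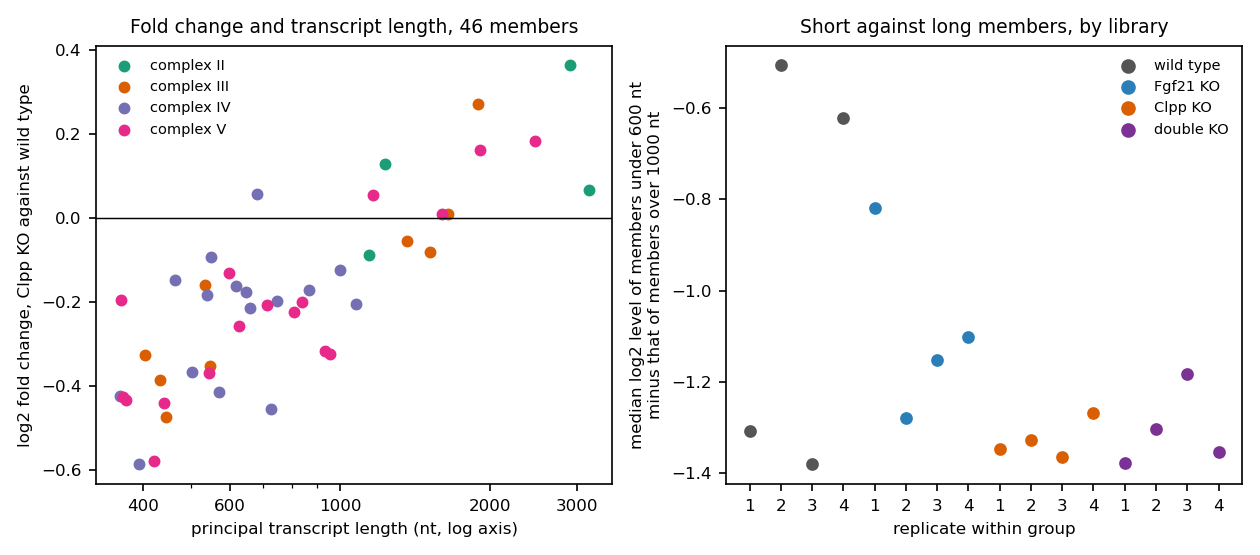
Left, the log2 fold change of each member in Clpp KO against wt over the length of its principal transcript (nt, log axis), coloured by complex; right, for each library, the median log2 level of members under 600 nt minus that of members over 1000 nt. Longer members have higher fold changes, and wt replicates 2 and 4 at −0.51 and −0.62 stand above all other libraries.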

How the data were processed

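Cardiac RNA was sequenced from a stranded mRNA kit, per the labels' protocols, in 4 libraries of each of 4 genotypes. The authors deposited whole-number counts per gene. The submitters' processing notes name fastp 0.21.0, kallisto 0.46.1, R 4.0.3, edgeR 3.32.1, DESeq2 1.30.1 and the build GRCm38.p6. The sources used here do not give how kallisto's estimates became whole numbers, or whether strand was used.

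Counts were tested with edgeR 4.0.16 (R 4.3.3): filterByExpr (count minimum 10, total minimum 15) left 15255 genes, TMM factors were 0.674 to 1.83, and a robust quasi-likelihood fit over all 16 libraries had 12 residual degrees of freedom (biological coefficient of variation 0.249). A gene was called at a Benjamini-Hochberg adjusted p under 0.05 over all genes tested. Totals of 36260545 to 51820727 counts limit precision less than the spread between libraries does. Ratios of paired isoforms, with 0.5 added to each count, were tested by exact permutation over libraries. Lengths are those of the principal transcript, at hand for 98.6% of genes tested.

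Named were the called members or the 2 of lowest p per complex and comparison, isoform pairs, the Sdh genes and the highest member per length, and, of the other lists, the called genes or the 2 of lowest p. Members and lists were chosen with earlier results of these data known. Alternatives were DESeq2 1.42.0, limma-voom (limma 3.58.1) with quality weights, library size alone, mtDNA genes left out, other filters, a replicate block, an atrial covariate and libraries left out. Length and GC offsets and the sum of wt replicates 1 and 3 were added after seeing the data. On simulated counts, the test of Clpp loss over both Fgf21 genotypes recovered 45.9% of genes changed 1.5-fold, 81.9% of those changed 2-fold and 90.7% of those changed 4-fold, with 2.74% false calls among its calls over 15255 genes. For Clpp KO against wt the shares were 22.4%, 65.2% and 87.5%, with 6.45% false calls. The simulation drew each gene independently from its fitted dispersion around a mean shared by all groups, with randomly chosen genes changed. It held no shift common to many genes, such as those of wt replicates 2 and 4 or of mtDNA transcripts. These rates therefore do not cover such shifts in the data.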

Additional observations from a re-analysis of the deposited data

Results flagged for a closer look

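Of 204 groups of 4 libraries checked, 15 held a library whose gap to its nearest neighbour was, as a share of the group's range, over Dixon's critical value, where chance alone gives about 10.2. Wt replicate 2 stood below the other wt libraries for Atp5c1 (425.5 CPM scaled by TMM), Sdhb (321.6) and Uqcrfs1 (250.9), and for the share of counts outside mtDNA taken by the members of complex III (0.5477%) and of complexes II to V (3.738%). Wt replicate 4 stood above the others for Uqcr10 (274.3 CPM scaled by TMM) and Uqcr11 (336.1), and for the share of all counts of the members of complex III (0.482%) and complex V (1.555%). Fgf21 KO replicate 1 stood below the rest of its group for the mtDNA-encoded share of all counts of complex III (2.662%) and complex V (3.065%), for all mtDNA genes together (29.15%) and for mtDNA-encoded counts per nuclear-encoded count of complex III (4.866). Sdhc was low in Fgf21 KO replicate 4 (228 CPM scaled by TMM), and the share of all counts of the complex III members was high in double KO replicate 2 (0.2698%).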

How the results depend on the processing

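With library size alone as the scale, 45 members were called in Clpp KO against wt, 46 in double KO against Fgf21 KO, 44 in double KO against wt and 46 over both Fgf21 genotypes, and some log2 fold changes turned: in Clpp KO against wt Sdhd to −0.5586, Cox6a2 to −0.6862 and Sdhc to −0.6317; in double KO against Fgf21 KO Sdha to −0.5454 and Sdhd to −0.6774; in double KO against wt Sdhd to −0.5292, Uqcrc1 to −0.6029, Atp5b to −0.5456, Atp5a1 to −0.447, Cox6a2 to −0.7189, Cox4i1 to −0.8613, Sdhb to −0.7496 and Sdhc to −0.6189; over both Fgf21 genotypes Sdha to −0.4199, Sdhc to −0.6802 and Sdhd to −0.618. The counts of calls with library size alone are given without the share of all genes called on that scale. They therefore do not set the members apart from other genes. Over both Fgf21 genotypes the median of all genes also fell on that scale, as given above. DESeq2 called 1 member in Clpp KO against wt, 1 in double KO against Fgf21 KO and 9 over both Fgf21 genotypes. Limma-voom called 16, 1 and 25 in the same order, with Cox8a at 0.2986 in Clpp KO against wt. An atrial covariate gave 1 call in Clpp KO against wt and, over both Fgf21 genotypes, 2 that were Cox7a1 and Uqcr11 (−0.4605, adjusted p = 0.0499), not Atp5e. Over both Fgf21 genotypes 1 member was called without wt replicates 2 and 4 and 1 with a GC offset, and leaving out 1 library gave 1 to 5, the 5 without wt replicate 3; in every other comparison that gave 0. The Cox8b to Cox8a difference was −0.4207 without wt replicates 2 and 4 and −0.3043 (adjusted p = 0.0114) with exact permutation within Fgf21 genotype. Leaving out 1 library moved it between −0.3594 and −0.2571, with an adjusted permutation p under the threshold without wt replicate 2, wt replicate 4, Fgf21 KO replicate 2 or double KO replicate 3, Cox7a1 to Cox7a2 between −0.4405 and −0.3637, Cox4i2 to Cox4i1 between −0.2328 (under the threshold, without Fgf21 KO replicate 2) and −0.107, and Cox6a2 to Cox6a1 between 0.0706 and 0.2509. The cause of these changes was not tested. A replicate block left 1 call over both Fgf21 genotypes and 0 in every other comparison; same-numbered libraries correlated at −0.2283 to 0.3637 over 24 pairs, 4 of them over 0.1, and 3 of 16 libraries correlated best with their own number, so the numbers were not taken as pairs.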
